A study of Tetranychus urticae with 4 samples.

Results

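The genes treated here are 8 duplicated putative antifreeze protein genes of the two-spotted spider mite *Tetranychus urticae*, called antifreeze protein genes below. They form 4 pairs, each pair holding 1 gene on scaffold 22 of the genome and a near-identical copy on another scaffold. The pairs are tetur63g00030 with tetur22g02640, tetur63g00050 with tetur22g02670, tetur63g00070 with tetur22g02730, and tetur283g00030 with tetur22g02550. The study also pairs tetur22g02690 with tetur63g00090, but no probe lists the latter, and that pair is not among the members. Their members were chosen by identifier, from the gene names that each array spot carries, and all 8 of them were found among 18217 genes on the array. The arrays compared adult females of the LS-VL strain that had entered reproductive diapause with adult females of the same strain that had not. Both groups had been reared as larvae under the same diapause-inducing regime of 17 °C, 80% relative humidity and 8 h light to 16 h dark, so that day length and temperature did not differ between them. RNA came from pools of whole females, and a level is therefore an average over tissues. More RNA per cell and a larger share of cells with the transcript cannot be told apart.

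Each of the 4 arrays carried 1 diapausing pool, labelled with the red dye Cy5, and 1 non-diapausing pool, labelled with the green dye Cy3. The labels gave no dye swap, so a probe's dye bias and its response to diapause cannot be told apart. A log2 ratio is the log2 of the diapausing over the non-diapausing signal on 1 array, and a positive value is a higher level in diapausing females. A gene was called upregulated when the limma test gave an adjusted p under 0.05 and the mean log2 ratio was at least 1, a 2-fold change (FC). The state of the females was described with 6 vitellogenin genes, which encode yolk protein precursors of reproducing females. The study lists these 6 genes among its most downregulated on these same samples, so their direction is no independent check. Their median log2 ratio was -9.91 on replicate 1, -8.04 on replicate 2, -9.22 on replicate 3 and -5.44 on replicate 4, and all 6 genes were called downregulated. Replicate 4 thus showed the smallest yolk difference. Between arrays, the log2 ratios of all genes correlated at 0.877 to 0.914, a correlation across genes, which are not independent replicates.

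Antifreeze proteins bind to small ice crystals and stop them from growing, which lowers the freezing point of a body fluid below its melting point. In beetles these proteins are short, secreted and rich in cysteine and threonine, and the cysteines form disulfide bridges that hold a flat ice-binding face in place. The mite genes encode cysteine-rich proteins that resemble them in sequence, and the study calls them putative antifreeze proteins. In its predicted structure of tetur22g03033, a family gene outside the members, that ice-binding face could not be seen. Activity on ice was measured neither in the study, which asks for such tests, nor here. The study noticed the family because it rose in diapause on these same samples, so the direction of its members on these arrays is not independent evidence. The study also leaves it undecided whether the copies outside scaffold 22 are recent duplicates or 1 gene placed on separate scaffolds during assembly. These arrays cannot tell these cases apart, since a probe designed for 1 copy may bind RNA of the other.

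Among the study's designed oligonucleotides, 6 are qPCR primers for scaffold 22 members, and they are shown because they are the stretches of these genes whose letters the sources used here give. The primers, 5′ to 3′, have capitals on TGT and TGC in a forward primer, or on ACA and GCA, their reverse complements, in a reverse primer.
tetur22g02640 forward: atTGTGCcagttctaaaggttg
tetur22g02640 reverse: atttGCAcgatttGCACAg
tetur22g02670 forward: gattctaccgatggttcatatttac
tetur22g02670 reverse: tcagACAgtttGCACAattgg
tetur22g02730 forward: gatTGTacgaacTGTaaagatTGTagg
tetur22g02730 reverse: ctactgtatcgtcACAgccttg
TGT and TGC are the codons of cysteine. A TGT or TGC with another starting 9 bases further on, read along the coding strand, occurred in 3 of these 6 primers, 1 for each of the 3 genes. It occurred in 2 of the 28 other primers of the same list, but in none of the 24 for genes outside the family. Both of those matches were thus in other antifreeze genes, and the spacing is not particular to the members. The reading frame was not determined, so a match describes letters and not a codon. The qPCR values themselves were not analysed here.

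All 8 genes were upregulated in diapausing females, and each was higher on 4 of 4 arrays. Over the whole array 9.04% of 14986 tested genes were called upregulated, and 42.9% were higher on all 4 arrays, while 9.1% were called downregulated. That balance depended on the scaling, with 337 genes called up and 804 down after normexp and loess, and 2788 up and 912 down after scaling to the spike-in controls. With probes required to be well above background in both channels on all 4 arrays, all 8 members were still tested and called. With no detection filter 7 were called, tetur283g00030 being the exception. The mean FC ranged from 3.76 for tetur22g02550 to 45.8 for tetur22g02640. The lowest place depended on a dim probe. With probes detected in both channels on all arrays, the log2 FC of tetur22g02550 was 2.93, above the 2.26 of tetur63g00070. By mean log2 ratio of both copies, the pairs ran from tetur63g00030/tetur22g02640 at 5.46 through tetur63g00050/tetur22g02670 at 3.94 and tetur283g00030/tetur22g02550 at 2.59 to tetur63g00070/tetur22g02730 at 2.31.

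**Figure D1:**
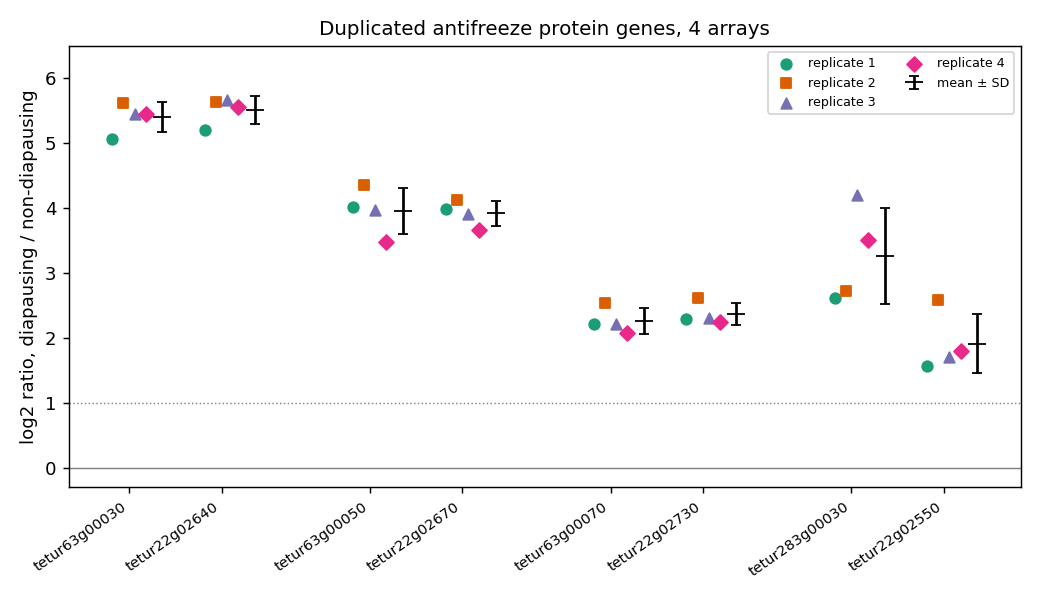
Log2 ratio of diapausing over non-diapausing females (vertical axis) for the 8 duplicated antifreeze protein genes (horizontal axis, copies of a pair side by side), with 1 point for each of the 4 arrays and the mean ± SD beside them. The dotted line marks a 2-fold change; the top pair lies between 5.07 and 5.67 on every array, and the lowest points belong to tetur22g02550.

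The pair tetur63g00030 and tetur22g02640 had the strongest response of the 4. For tetur63g00030 the log2 ratio was 5.07, 5.62, 5.46 and 5.45 on replicates 1 to 4. For tetur22g02640 it was 5.20, 5.64, 5.67 and 5.56. Both copies were lowest on replicate 1, and the other 3 arrays lay close together. The mean log2 FC was 5.40 ± 0.23 for tetur63g00030 (SD, n = 4, limma adjusted p = 3.74e-05), an FC of 42.2. For tetur22g02640 it was 5.52 ± 0.22 (SD, n = 4, limma adjusted p = 3.56e-05). Ranked by log2 FC, they stood at 18 and 16 among all tested genes, with 1 the highest.

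The signals behind these ratios were well above background in both channels on every array for 5 of the 6 probes of this pair. On probe 44046 of tetur22g02640, the non-diapausing signal was 1859, 1298, 1279 and 1153 on replicates 1 to 4, in arbitrary units of processed intensity. The diapausing signal on the same probe was 70553, 63234, 63365 and 53674. Both channels were thus highest on replicate 1, and the non-diapausing channel was set apart further. On probe 55690 of tetur63g00030, the non-diapausing signal was likewise highest on replicate 1, at 891 against 456 to 569 on the other arrays. The sixth probe, 44047 of tetur22g02640, was not well above background in either channel on any array, with diapausing signals of 13.8 to 29.0. It was left out of the gene's mean, and with it the log2 FC of tetur22g02640 was 4.17.

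The pair tetur63g00050 and tetur22g02670 came next. For tetur63g00050 the log2 ratio was 4.02, 4.35, 3.97 and 3.48 on replicates 1 to 4. For tetur22g02670 it was 3.98, 4.13, 3.90 and 3.67. Both copies were highest on replicate 2 and lowest on replicate 4, the array with the smallest yolk difference. Without replicate 4 the log2 FC was 4.11 for tetur63g00050 and 4.00 for tetur22g02670. By contrast, tetur63g00030 and tetur22g02640 were lowest on replicate 1, the array with the largest yolk difference. A link to the yolk difference was not tested. The mean log2 FC was 3.95 ± 0.36 for tetur63g00050 (SD, n = 4, limma adjusted p = 8.47e-05) and 3.92 ± 0.19 for tetur22g02670 (SD, n = 4, limma adjusted p = 3.98e-05). The FCs were 15.5 and 15.1, the second with a probe that gives only a bound, 44056, taken at its measured ratio. Without that probe the log2 FC of tetur22g02670 was 4.27.

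This pair held the only probe that lists both copies of any pair, 44057, so the 2 gene values above are not independent. That probe gave 4.08, 4.80, 3.90 and 3.95 on replicates 1 to 4. Probes listing a single copy averaged 3.88 ± 0.38 for tetur63g00050 and 3.79 ± 0.18 for tetur22g02670 (SD, n = 4). The shared probe lay above both on replicates 1 and 2, and on replicate 4 as well, but not on replicate 3.

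On probe 44055 of tetur22g02670, the non-diapausing signal was 125, 59.9, 82.7 and 98.4, and the diapausing signal 2256, 1751, 1740 and 1536, on replicates 1 to 4. On probe 44056 of the same gene, the non-diapausing signal was not well above background on any array, so that probe gives only a bound. Its diapausing signal was at least 1.46-fold higher, measured after normexp correction with loess and A-quantile normalization against the lowest non-diapausing signal well above background. With normexp correction and loess normalization together, the log2 FC was 2.87 for tetur63g00050 and 2.04 for tetur22g02670, and with normexp and median centring it was 3.18 and 2.20. Both genes were called upregulated either way.

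The pair tetur63g00070 and tetur22g02730 had a smaller and more even response. For tetur63g00070 the log2 ratio was 2.22, 2.54, 2.22 and 2.07 on replicates 1 to 4. For tetur22g02730 it was 2.30, 2.62, 2.31 and 2.24. Replicate 2 was highest and replicate 4 lowest in both copies. The mean log2 FC was 2.26 ± 0.20 for tetur63g00070 (SD, n = 4, limma adjusted p = 0.000101) and 2.37 ± 0.17 for tetur22g02730 (SD, n = 4, limma adjusted p = 7.52e-05). These are FCs of 4.79 and 5.15.

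All 6 probes of this pair were well above background in both channels on every array. On probe 55698 of tetur63g00070, the non-diapausing signal was 4726, 3252, 4188 and 4191 on replicates 1 to 4, and the diapausing signal 25936, 21443, 21907 and 20716. The non-diapausing signal was thus lowest on replicate 2, where the ratio was highest. On probe 44074 of tetur22g02730, the non-diapausing signal was 319, 211, 284 and 299, again lowest on replicate 2. Over the 6 probes, the mean log2 ratio ranged from 2.04 to 2.56.

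The pair tetur283g00030 and tetur22g02550 rested on the fewest probes, 3 of its 6. For tetur283g00030 a single probe, 48080, gave log2 ratios of 2.61, 2.72, 4.20 and 3.51 on replicates 1 to 4. The gene's other probes, 48078 and 48079, were not well above background in either channel on any array, and with them the log2 FC of tetur283g00030 was 1.00, just short of the call. For tetur22g02550 the gene values were 1.57, 2.58, 1.70 and 1.80. The mean log2 FC was 3.26 ± 0.74 for tetur283g00030 (SD, n = 4, limma adjusted p = 0.00067), the largest SD of the 8 genes, and 1.91 ± 0.46 for tetur22g02550 (SD, n = 4, limma adjusted p = 0.000806).

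The value of tetur22g02550 averaged 2 probes that differed by 2.04 in mean log2 ratio. Probe 44023 gave 2.71, 2.58, 3.37 and 3.07 on replicates 1 to 4, with diapausing signals of 8262 to 12007 and non-diapausing signals of 985 to 1705. Probe 44022 gave 0.43, 2.58, 0.03 and 0.53, and its signals reached no more than 46.5 in the diapausing and 34.6 in the non-diapausing channel. On its own, probe 44022 was the only kept member probe that was not called (limma adjusted p = 0.134, over all kept probes). Without that probe the log2 FC of tetur22g02550 was 2.93. The bright probes of both copies, 48080 and 44023, were higher on replicates 3 and 4 than on replicates 1 and 2 in these unscaled ratios. The gene values of the other 3 pairs did not show that order, and neither did the gene value of tetur22g02550. The order was not particular to this pair, as the family genes tetur22g02780, tetur22g02800 and tetur22g02810, outside the members, showed it too.

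**Figure D2:**
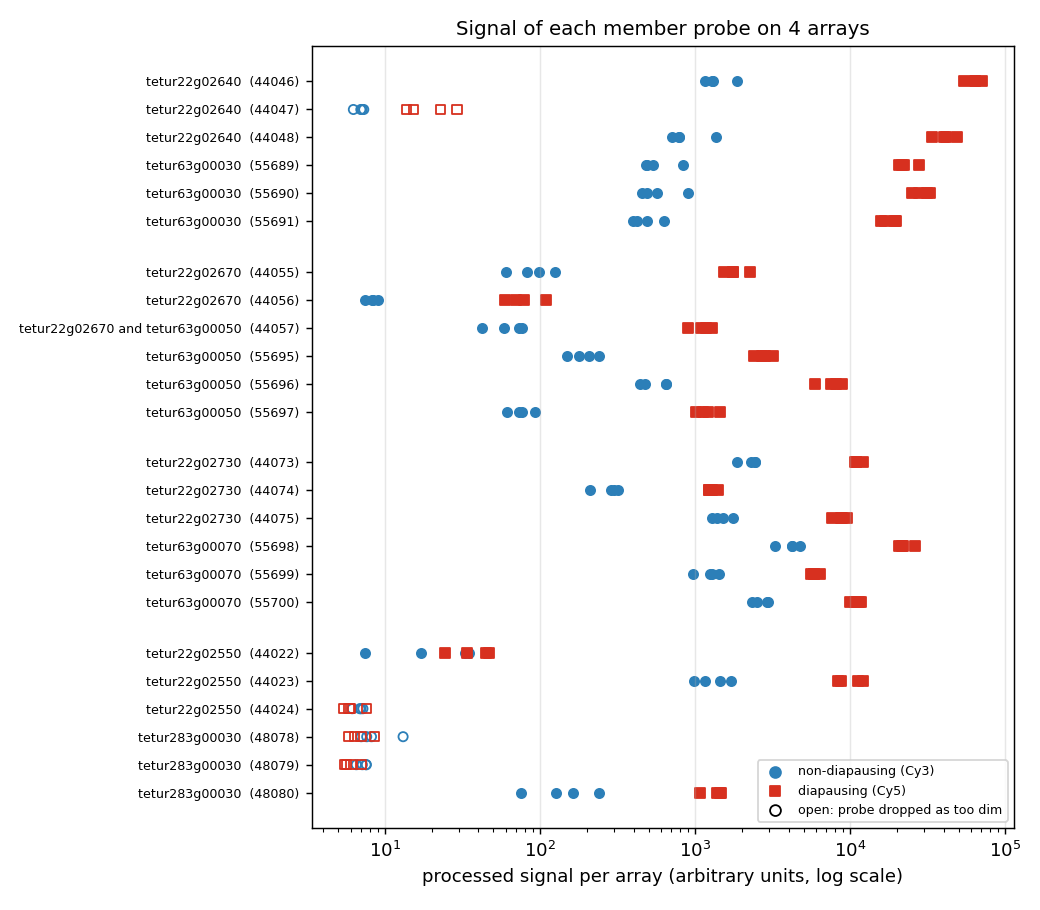
Processed signal of each member probe on the 4 arrays (horizontal axis, arbitrary units, log scale), with circles for non-diapausing females (Cy3) and squares for diapausing females (Cy5), and the probe's number after the gene it lists. Filled symbols separate on every row of the first 3 pairs, while the open symbols of the 4 dropped probes lie near the bottom of the signal range.

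The array held 24 probes for the 8 genes, of which 20 passed the detection filter, 83.3% against 72.5% of all probes with a gene. A probe could pass through the diapausing channel alone, as 44056 did. Probe 44022 was well above background on 3 arrays in the diapausing channel and on 1 in the non-diapausing channel. Of the 20 kept probes, 19 were called upregulated when limma was fitted to single probes, against 8.78% of all 40349 kept probes. Because the filter can admit a member probe for being high in diapause, that share is no support for the direction. Probes of a gene ranged by 0.02 to 0.43 in mean log2 ratio for 5 of the 7 genes with more than 1 kept probe. The exceptions were tetur22g02670, with a range of 1.12, and tetur22g02550, with 2.04. Over the 13463 genes of the array with at least 2 kept probes, the median range was 0.27, and 6.79% of them had a range of at least 1. Over the 1061 of these genes that were upregulated, as the members were, the median range was 0.38.

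Within a pair, the mean difference in log2 ratio between copies was within 0.12 of 0 in 3 of 4 cases, a closeness that did not hold under every setting. The difference was taken on each array between the probes that list 1 copy only, the copy outside scaffold 22 minus the copy on scaffold 22. An exact two-sided sign-flip permutation test over 4 arrays cannot give a p below 0.125, so none of the 4 comparisons could pass 0.05. For tetur63g00030 minus tetur22g02640 the difference was -0.13, -0.02, -0.22 and -0.10 on replicates 1 to 4, below 0 on every array. Its mean was -0.12 ± 0.08 (SD, n = 4, exact p = 0.125, adjusted over 4 pairs 0.167). For tetur63g00070 minus tetur22g02730 it was -0.08, -0.08, -0.09 and -0.17, with a mean of -0.11 ± 0.04 (SD, n = 4, exact p = 0.125, adjusted 0.167). In both pairs the scaffold 22 copy was thus the higher one on all 4 arrays, by a margin smaller than the range between probes of 1 copy in 3 of those 4 genes.

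For tetur63g00050 minus tetur22g02670 the difference was 0.06, 0.41, 0.09 and -0.21, with no common direction and a mean of 0.09 ± 0.25 (SD, n = 4, exact p = 0.625, adjusted 0.625). Without replicate 2 its mean was -0.02. For tetur283g00030 minus tetur22g02550 it was 1.04, 0.13, 2.50 and 1.71, above 0 on every array, with a mean of 1.35 ± 1.00 (SD, n = 4, exact p = 0.125, adjusted 0.167). This last difference was 0.32 when the brightest probe of each copy was taken alone, and -0.27 with all probes and no detection filter. For tetur63g00030/tetur22g02640 the difference was 1.23 with no detection filter, and for tetur63g00050/tetur22g02670 it was 1.19 after normexp and loess. Taking the brightest probe also turned the sign in the other 3 pairs, to 0.14 for tetur63g00030/tetur22g02640, -0.57 for tetur63g00050/tetur22g02670 and 0.15 for tetur63g00070/tetur22g02730. No direction between copies therefore held over the choice of probes in any of these 3 pairs.

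**Figure D3:**
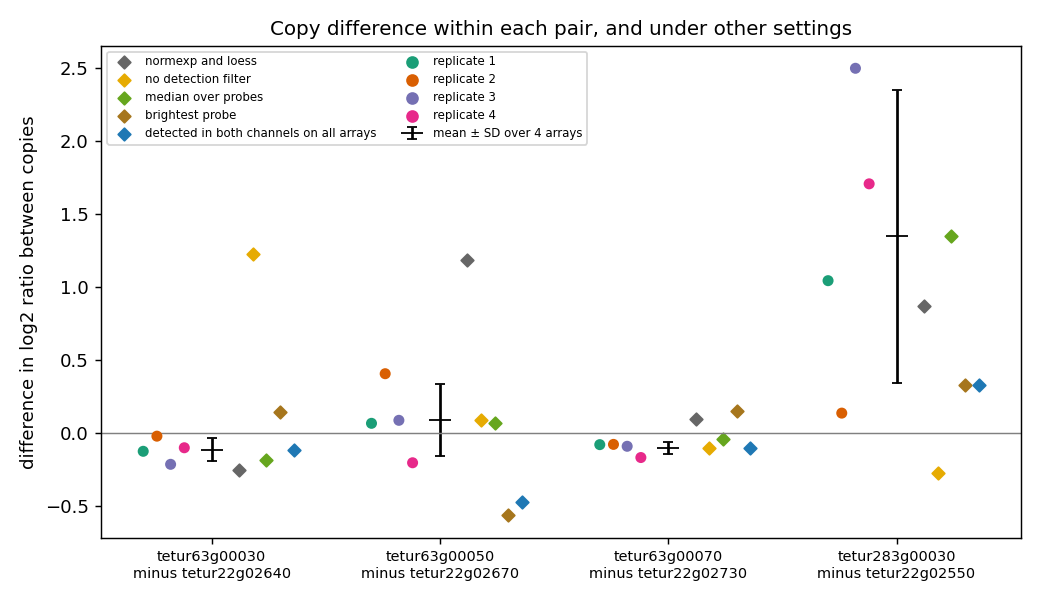
Difference in log2 ratio between the copies of each pair (vertical axis), with circles for the 4 arrays, a bar for their mean ± SD, and diamonds for the mean under 5 other settings. The diamonds fall on both sides of 0 in every pair, and the widest spread between arrays, from 0.13 to 2.50, is that of tetur283g00030 minus tetur22g02550.

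The pairs were then set in order of their response. On the mean of both copies, tetur63g00030/tetur22g02640 lay 1.52 ± 0.34 above tetur63g00050/tetur22g02670 (SD, n = 4, exact p = 0.125, adjusted over 3 comparisons 0.188). The gap ranged from 1.13 to 1.93 over the arrays. The pair tetur63g00050/tetur22g02670 lay 1.35 ± 0.48 above tetur283g00030/tetur22g02550 (SD, n = 4, exact p = 0.125, adjusted 0.188), again on all 4 arrays. The pair tetur283g00030/tetur22g02550 lay 0.27 ± 0.39 above tetur63g00070/tetur22g02730 (SD, n = 4, exact p = 0.375, adjusted 0.375), on 3 of 4 arrays, a difference within the spread between arrays. That last gap turned to -0.21 after normexp and loess, -0.27 after normexp and median centring and -1.17 with no detection filter. The gap above it, between tetur63g00050/tetur22g02670 and tetur283g00030/tetur22g02550, was 0.57, 0.61 and 2.80 under the same settings, and the top gap 2.71, 2.70 and 0.85. These sign-flip tests were two-sided, and 0.125 is again the smallest p they can give.

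The RNA spike-in controls, added to the RNA before labelling, gave an offset in log2 ratio of -0.03, -0.74, 0.13 and -0.81 on replicates 1 to 4. Subtracting it raised every member by a mean of 0.36, the shift that also took the median of all genes from 0.10 to 0.47. The FC of the lowest member, tetur22g02550, then corresponded to a log2 value of 2.27, and all 8 genes kept their call. The order of the arrays depended on this step. After it, tetur63g00030 read 5.10, 6.35, 5.32 and 6.27, so that replicates 2 and 4 were high and replicates 1 and 3 low. For tetur22g02670 the scaled values were 4.01, 4.87, 3.77 and 4.48, and replicate 4 was no longer lowest. Differences between copies, taken within an array, are not touched by this scaling.

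The other members of the family gave values around those of the pairs. The list holds 13 further loci, among them tetur63g00090, the copy of tetur22g02690, and tetur22g03073 and tetur63g00100, which the study calls pseudogenes. Of these loci 8 had probes, and all 8 were called upregulated, against 9.04% of all genes. That count is no support for the direction, because the study chose the family on these samples and because genes could pass the filter through the diapausing channel alone. With detection required in both channels on all arrays, 3 of the 8 were tested and 3 called. The highest was tetur22g02690, at 7.05, 7.36, 6.96 and 8.01 on replicates 1 to 4. Its mean was 7.34 ± 0.48 (SD, n = 4, limma adjusted p = 4.56e-05), above all 8 duplicated genes, but its non-diapausing signal was well above background on 2 of 4 arrays only. The lowest was tetur22g02800, at 1.88, 2.70, 2.75 and 2.72, with a mean of 2.51 ± 0.42 (SD, n = 4, limma adjusted p = 0.000333). In tetur22g02740 and tetur22g02760, named after their values were seen, no probe was well above background in non-diapausing females on any array. Neither gene is in the study's own list of upregulated antifreeze genes. Their diapausing signal was at least 2.30-fold and at least 1.94-fold higher, respectively, against the floor described for probe 44056. For each of the 8 duplicated genes, at least 1 probe was well above background in both groups on all 4 arrays. That was not particular to them, as it also held for 3 of the 8 other family genes.

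The members were also compared with the genes beside them, because the copies lie in stretches that resemble each other. Beside tetur283g00030, tetur283g00020 shared 12 probes with tetur22g02560 and tetur283g00010 shared 2 with tetur22g02570. On scaffold 63, tetur63g00010 shared 2 probes with tetur22g02630, and tetur63g00040 shared 1 with both tetur22g02540 and tetur22g02660. The neighbours of a member outside scaffold 22 were thus often those whose probes also list a neighbour of its copy on scaffold 22. By gene number, the shared genes ran in the same order on scaffold 63 as on scaffold 22, tetur22g02540 excepted. Those beside tetur283g00030 ran in the opposite order of number. Whether the numbers follow position on a scaffold was not checked.

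The neighbours as a group were mixed in direction. Among 44 other genes on scaffold 63, on the scaffold of tetur283g00030 and around the scaffold 22 members, 31 were tested. Of these, 4 were called upregulated and 6 downregulated. Together that is 10 of 31, a larger share than the 18.1% of all tested genes called in either direction. Neighbours that share probes count separately, as do tetur22g02570 and tetur283g00010, both down, and tetur22g02750 and tetur22g02991, both up. The calls are therefore not independent. Over the 31 genes, the median log2 FC was 0.17, against 0.10 over all tested genes. The lowest was tetur22g02590, at -2.58, -2.55, -2.32 and -2.11, with a mean of -2.39 ± 0.22 (SD, n = 4, limma adjusted p = 0.000105). Next in number to the member tetur63g00050, tetur63g00040 had a log2 FC of 0.47 ± 0.10 (SD, n = 4), and next to tetur283g00030, tetur283g00020 had 0.73 ± 0.09 (SD, n = 4), neither past the threshold for FC.

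The highest neighbour was tetur22g02680, whose number lies between those of tetur22g02670 and tetur22g02690. It read 3.98, 4.38, 3.97 and 3.81 on replicates 1 to 4, with a mean of 4.04 ± 0.25 (SD, n = 4, limma adjusted p = 4.66e-05). Among 13449 genes outside the family with at least 2 kept probes and none shared with a member, it was also the gene whose 4 ratios were nearest to the mean of tetur63g00050 and tetur22g02670, with a root mean square difference of 0.14. The files give it no gene name. A pair of neighbours that share probes with each other, tetur22g02750 and tetur22g02991, singled out after their values were seen, had log2 FCs of 3.50 ± 0.40 and 3.01 ± 0.43 (SD, n = 4). The fourth upregulated neighbour was tetur22g02930, at 1.32 ± 0.23 (SD, n = 4).

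**Figure D4:**
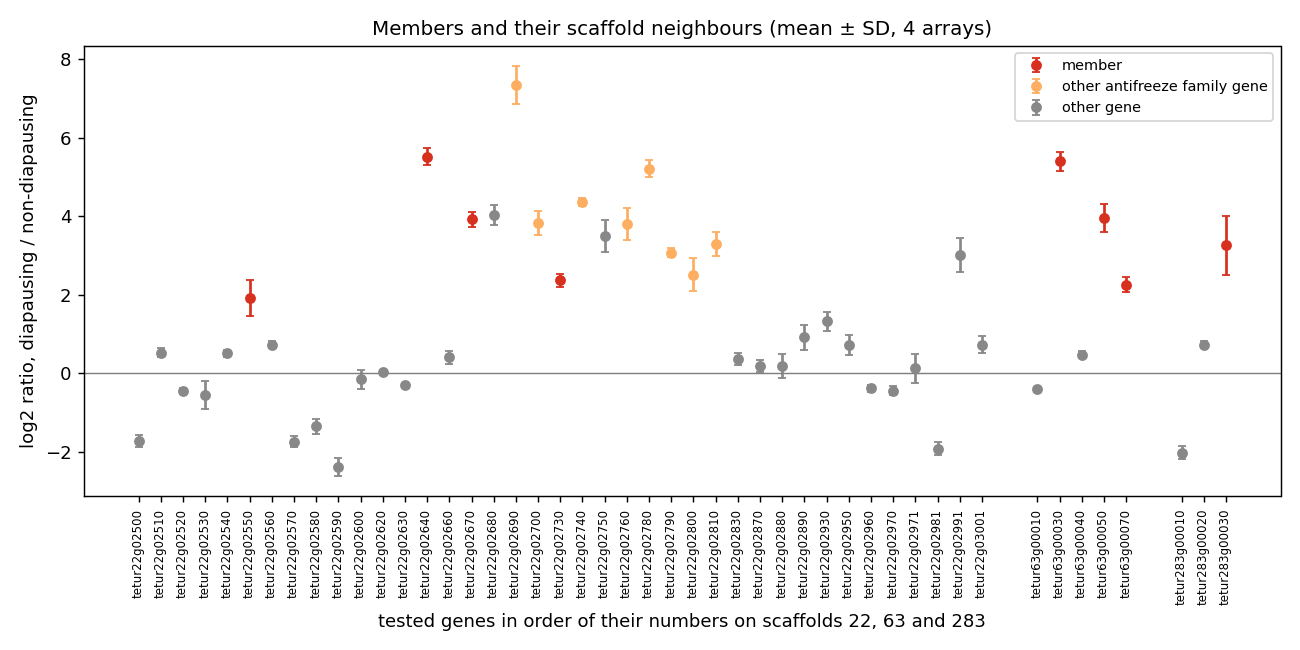
Mean log2 ratio ± SD over 4 arrays (vertical axis) for the tested genes around the members on their 3 scaffolds, in order of their numbers (horizontal axis). Members and other antifreeze genes lie above 1.9 throughout, while the other genes, apart from tetur22g02680, tetur22g02750 and tetur22g02991, lie between -2.39 and 1.32.

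For the other pairs, the nearest genes by the same measure lay on scaffolds without members. The exception was tetur22g02110, whose number is below those of the scaffold 22 members. For tetur63g00030/tetur22g02640 they were tetur22g02110, tetur30g01790 and tetur30g01720, with root mean square differences of 0.22, 0.31 and 0.33 over the 4 arrays. For tetur63g00070/tetur22g02730 they were tetur03g05860 at 0.19, tetur01g00370 at 0.20 and tetur01g08900 at 0.21. For tetur283g00030/tetur22g02550 they were tetur17g03520 at 0.06, tetur07g05470 at 0.18 and tetur46g00020 at 0.18. The copies of that pair differed, and their mean, 2.09, 2.65, 2.95 and 2.65 on replicates 1 to 4, is the profile of neither copy. These genes are therefore near to the mean and not to either copy. After tetur22g02680, the genes nearest to tetur63g00050/tetur22g02670 were tetur39g00780 at 0.28 and tetur16g01170 at 0.32. With 4 arrays, such likeness is only a description of these samples.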

How the data were processed

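Two-colour expression data were used as deposited. The authors hybridised Agilent arrays, added RNA spike-in controls and extracted the spots with Agilent Feature Extraction (10.7.1.1 per the file headers). The deposited log10 ratios are Cy5 over Cy3 after that software's background subtraction and dye normalization, and the deposited processed signals are linear intensity values. A deposited table of log2 values of the same spots served as an alternative. Log10 ratios were turned into log2. Control spots and outlier-flagged spots (49 to 114 of 61657 per array) were left out, spots of a probe were averaged, and 0 gene spots were saturated. A probe was kept where 2 or more arrays had either channel flagged as well above background. A gene's value is the mean of its kept probes. limma 3.58.1 in R 4.3.3 was fitted across all genes with Benjamini-Hochberg adjustment, and tested on simulated data. The study describes RNA from a single population, raised from eggs laid on a single bean plant, and names no separate cultures. The p-values therefore measure the spread between pools of that population, and having 4 arrays limits precision. Genes named are all members, the highest and lowest other family genes and neighbours, and the 3 genes nearest to each pair. The members and lists were chosen with earlier results of these data known. Gene identifiers matched 0 rows of the reference table, so no coordinates are given.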

Additional observations from a re-analysis of the deposited data

Results flagged for a closer look

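Of 48 values examined for an array far from the other 3 (Dixon's test, whose critical value chance exceeds in about 1 of 20 groups), 5 were flagged. The copy difference tetur63g00070 minus tetur22g02730 was -0.17 on replicate 4, against -0.09 to -0.08 on the others. In the same pair, probe 44074 of tetur22g02730 read 2.54 on replicate 2, against 2.11 to 2.14, and probe 55699 of tetur63g00070 read 2.58 on replicate 2, against 2.16 to 2.17. The gene tetur22g02800 read 1.88 on replicate 1, against 2.70 to 2.75. The gene tetur46g00020 read 2.19 on replicate 1, against 2.83 to 2.95.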

How the results depend on the processing

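Over 18 alternatives, the 8 members gave 144 log2 FCs, of which 143 kept direction and call. The exception, tetur283g00030, fell just short of 2-fold without the detection filter, at 1.00. Not all of these values are separate checks. The deposited log2 values, other forms of the limma test and array position as covariate gave the main log2 FCs again, so only the adjusted p could change. The fit of separate channels repeated the log2 FCs of normexp and loess. The unpaired fit of separate channels, with no replicate block, kept all 8 calls, as did leaving out each array in turn. The 8 other family genes were all called in 17 alternatives; with probes required to be well above background in both channels on all arrays, 3 were tested and 3 called. Called neighbours numbered 10, with 7 after normexp and loess, 14 after spike-in scaling and 10 to 11 without 1 array.

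The copy differences moved most. For tetur63g00030/tetur22g02640 the value was -0.26 after normexp and loess, 1.23 with no detection filter and 0.14 with the brightest probe, and -0.15 to -0.08 without 1 array. For tetur63g00050/tetur22g02670 it was 1.19 after normexp and loess, -0.57 with the brightest probe and -0.47 with probes detected in both channels on all arrays, and -0.019 to 0.19 without 1 array. For tetur63g00070/tetur22g02730 it was 0.094 after normexp and loess, -0.045 with the median over probes and 0.15 with the brightest probe, and -0.11 to -0.08 without 1 array. For tetur283g00030/tetur22g02550 it was -0.27 with no detection filter and 0.32 both with the brightest probe and with probes detected in both channels, and 0.96 to 1.75 without 1 array. For the differences between pairs, all settings were chosen after seeing the data. The gap of tetur63g00030/tetur22g02640 over tetur63g00050/tetur22g02670 was 2.71 after normexp and loess, 2.70 after normexp and median centring and 0.85 with no detection filter, and 1.38 to 1.65 without 1 array. The gap of tetur63g00050/tetur22g02670 over tetur283g00030/tetur22g02550 was 0.57, 0.61 and 2.80 under those settings, and 1.17 to 1.49 without 1 array. The gap of tetur283g00030/tetur22g02550 over tetur63g00070/tetur22g02730 was -0.21, -0.27 and -1.17, with 0.78 for probes detected in both channels, 0.70 with the brightest probe and 0.14 to 0.42 without 1 array. For the copy differences, the brightest-probe and both-channel settings were chosen after seeing the data. The cause of these changes was not tested, beyond the number of probes that enter. Over all genes, upregulated calls numbered 1355 and downregulated calls 1364, with 337 and 804 after normexp and loess and 2788 and 912 after spike-in scaling. Probe 44056 of tetur22g02670, with no non-diapausing signal well above background, and the single kept probe of tetur283g00030 limit what those FCs show.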
